A study of Mus musculus with 16 samples.

Results

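The Zfp genes are mouse zinc finger protein genes whose symbol is Zfp followed only by digits. They were chosen by that symbol and by detection: a probe was taken when its detection p-value, the chance that a signal this bright comes from the negative control beads, fell below 0.01 on 3 or more of 16 arrays. Of 353 such probes for 259 genes on the array, 135 probes for 113 genes were kept. Over the whole array, 10291 of 25697 probes were kept.

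The study asked whether a reduced dose of *Trim28*, a corepressor of transcription, changes gene expression in liver. RNA came from the livers of 4-week-old males, 7 arrays from *Trim28MommeD9/+* mice and 9 from *Trim28+/+* littermates. Both genotypes are on the inbred FVB/NJ background of a mutagenesis line that carries a GFP transgene, and the MommeD9 allele is a chemically induced splice site mutation, present in the heterozygotes in every cell. The methods give 4 mice per genotype with technical replicates, but which arrays belong to the same mouse is stated neither there nor in the labels, so arrays are the unit of every test and p-values are too small where arrays share one.

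Zinc fingers are small folds held together by a zinc ion, and most Zfp proteins carry several C2H2 fingers in a row that read a DNA sequence. In many of them a KRAB domain at the front binds TRIM28, which gathers the histone methyltransferase SETDB1, HP1 proteins and histone deacetylases into repressive chromatin marked by H3K9me3. Many KRAB proteins are known for silencing retrotransposons, and their genes lie in clusters that grew by local duplication. Other Zfp proteins lack KRAB and do unrelated work, from messenger RNA decay to splicing and ubiquitin transfer, so the shared name does not mean a shared function.

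Zfp probes were called in both directions in *Trim28MommeD9/+* livers, at a share close to that of all probes. Of 135 Zfp probes, 12 passed as higher and 15 as lower, which left 108 that did not pass (limma, Benjamini-Hochberg adjusted p under 0.05 over all 10291 probes). That is 20% called, beside 23.3% of all probes tested (11.1% higher and 12.2% lower). The 27 called probes belong to 23 genes. The median log2 difference was 0.00 over the Zfp probes and 0.05 over all probes, and 68 of 135 lay above 0. Here and below, levels are normalized log2 intensities, and a difference is the *Trim28MommeD9/+* mean minus the *Trim28+/+* mean on that scale, given with its standard error (SE). The split of calls depended on how arrays were brought to a common scale. It was 1 higher and 48 lower after scaling to the median of all probes (0.486% and 34.2% of all probes called), 20 and 13 after scaling to the median of the kept probes (16.1% and 10.3%), and 2 and 23 in the authors' scaled values (5.21% and 15.7%). At an adjusted p under 0.01, 2 Zfp probes were higher and 6 lower, beside 10.1% of all probes called. Scaling to the median of all probes moved the median difference of all 10291 probes from 0.05 to -0.18 and that of the Zfp probes to -0.19.

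The genotypes also differ in a technical measure. The constant that the authors subtracted from each array as background was 37.59 to 40.29 on the 7 *Trim28MommeD9/+* arrays. It was 42.68 on *Trim28+/+* replicate 1, and 48.77 to 56.18 on the other 8 *Trim28+/+* arrays. The widest gap puts replicate 1 on the lower level with the mutants, though outside their range. Mean intensity separated the genotypes, at 204.6 to 269.9 in *Trim28MommeD9/+* and 272.6 to 343.6 in *Trim28+/+*. Replicate 1, at 316.9, is not matched to the mutants there, and it had 10262 detected probes beside their 9186 to 9572. A comparison within 1 background level therefore has a single control array, *Trim28+/+* replicate 1, and with a block for the background level no Zfp probe was called by limma, beside 0.0292% of all probes. At an unadjusted p under 0.05 that block gave 4 Zfp probes higher and 16 lower, 14.8% of 135, beside 7.11% of all probes (316 higher and 416 lower). The median difference under the block was -0.13 over the Zfp probes and 0.00 over all probes. By class it was -0.17 for KRAB-containing members, -0.12 for those taken to lack KRAB and -0.05 for the unclassified. Differences under the block equal the *Trim28MommeD9/+* mean minus *Trim28+/+* replicate 1, and they are given below as the difference against replicate 1. Whether the background level plays a part in any call was not tested further.

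Technical repeats also bear on the calls. To look for arrays of the same mouse, arrays were matched within each genotype so that the summed correlation of their probe-centred values was highest. The *Trim28MommeD9/+* matches were replicate 1 with 2, 3 with 6 and 4 with 7, at correlations from 0.718 to 0.856. Those of *Trim28+/+* were replicate 2 with 3, 4 with 7, 5 with 8 and 6 with 9, at 0.456 (4 with 7) to 0.772, leaving *Trim28MommeD9/+* replicate 5 and *Trim28+/+* replicate 1 single. These correlations run over probes, the pairs were chosen by the values themselves, and the labels do not give them. With the pairs as a random block in limma 7 of the 27 called Zfp probes stayed called, 2 higher and 5 lower. These were all the Zfp probes called in that fit, which called 2.63% of all probes higher and 5.28% lower. The 7 are those of *Zfp263*, *Zfp825*, *Zfp672*, *Zfp451*, *Zfp654* and *Zfp36* and the probe of *Zfp41* with the larger difference (adjusted p = 0.0217 to 0.049). Each of the other 20 kept its direction and lost its call (adjusted p = 0.0631 to 0.198), and the adjusted p-values below are those of the fit without pairs.

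*Trim28*, on chromosome 7, was at 8.53 to 8.76 (median 8.62) on the *Trim28MommeD9/+* arrays and 8.63 to 9.39 (median 9.05) on the *Trim28+/+* arrays, of which replicate 7 alone lay within the range of the mutants. The difference was -0.44 (SE 0.09, limma adjusted p = 0.00256), and -0.77 against replicate 1. The liver markers *Apoa1* and *Ttr* were bright on every array, at 14.27 to 14.57 and 14.16 to 14.51. The kept probe of *Alb* was dim, at 5.00 to 5.67 in *Trim28MommeD9/+* (detected on 5 of 7 arrays) and 5.03 to 6.97 in *Trim28+/+* (9 of 9). Of 7 hepatocyte marker probes 0 were higher and 3 lower, those of *Cyp2e1*, *Serpina1c* and this dim probe of *Alb*. Their summed level was 16.14 to 16.29 in *Trim28MommeD9/+* and 16.24 to 16.39 in *Trim28+/+* over all 7 probes. Of 6 Kupffer cell marker probes 3 were higher (both probes of *Clec4f* and the probe of *Vsig4*) and 1, of *Adgre1*, was lower, with summed levels of 10.32 to 10.65 and 10.04 to 10.39. Endothelial markers had 1 probe higher and 1 lower of 6, and stellate cell markers 0 and 1 of 6. No probe of the lymphocyte, erythroid or neutrophil lists (2 each) was called, and the 4 cholangiocyte markers were not among the kept probes. In whole liver, fewer cells of a type and less RNA per cell cannot be told apart, and the part of cell composition in the calls below was not tested.

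Most Zfp probes were dim. Of 353 probes 205 were detected on 0 arrays and 13 on 1 or 2, which left 146 genes without a kept probe. Of the 135 that were kept, 85 (63%) were detected on all 16 arrays, beside 79% of all kept probes, and 105 (77.8%) had a mean log2 intensity under 7, beside 49.2%. Of the 105 dim probes 9 were higher and 13 lower (21% called), and of the 30 at 7 or more 3 were higher and 2 lower (16.7%), beside 23.3% of all probes both under 7 and at 7 or more. Among the 85 detected on all arrays, 7 were higher and 10 were lower when judged in the same fit, and the same counts came from a fit on such probes alone, beside 12.2% and 11.2% of all 8132. On only 1 probe, of *Zfp324*, was the signal detected on no *Trim28MommeD9/+* array. Among called probes, those of *Zfp451* and *Zfp869* were detected on fewer than 3 *Trim28MommeD9/+* arrays. Those of *Zfp551* and 1 of *Zfp532* were detected on fewer than 3 *Trim28+/+* arrays. Such probes met the detection rule only through the genotype where they were higher, so the filter itself favours the direction of their calls. Several well-known members were in the table without passing detection on 3 arrays: *Zfp568*, a KRAB protein needed in mouse embryos, *Zfp423*, a regulator of fat cell formation, *Zfp217*, an oncogene homologue, and *Zfp516*, a regulator of brown fat, were each detected on 0 arrays.

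On 5 of the 27 called probes the 7 *Trim28MommeD9/+* arrays did not overlap the 9 *Trim28+/+* arrays, 1 above and 4 below. Over all probes 2.32% did not overlap, 1.19% wholly above and 1.14% wholly below. Those below were of *Zfp263*, *Zfp825*, *Zfp236* and *Zfp672*, and the one above was a probe of *Zfp41*. The promoters of *Zfp263*, *Zfp825* and *Zfp672* are shown because these genes separate the genotypes array by array. The sequences are the 250 bases before the start of the gene in RefSeq's GRCm38.p6 assembly, read 5′ to 3′ on the gene's strand, with every CG dinucleotide, the target of DNA methylation in mammals, in capitals.
Zfp263, chr16:3743849-3744098, + strand: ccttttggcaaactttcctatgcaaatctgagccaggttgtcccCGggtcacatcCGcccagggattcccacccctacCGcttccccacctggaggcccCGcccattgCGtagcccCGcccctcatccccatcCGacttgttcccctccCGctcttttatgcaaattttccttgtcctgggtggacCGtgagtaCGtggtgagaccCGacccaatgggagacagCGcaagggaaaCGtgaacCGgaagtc
Zfp825, chr13:74493962-74494211, - strand: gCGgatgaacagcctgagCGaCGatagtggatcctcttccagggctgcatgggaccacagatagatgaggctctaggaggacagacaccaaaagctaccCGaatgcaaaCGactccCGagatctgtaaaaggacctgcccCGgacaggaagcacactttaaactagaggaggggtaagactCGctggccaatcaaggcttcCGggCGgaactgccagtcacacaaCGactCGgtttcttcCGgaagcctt
Zfp672, chr11:58323366-58323615, - strand: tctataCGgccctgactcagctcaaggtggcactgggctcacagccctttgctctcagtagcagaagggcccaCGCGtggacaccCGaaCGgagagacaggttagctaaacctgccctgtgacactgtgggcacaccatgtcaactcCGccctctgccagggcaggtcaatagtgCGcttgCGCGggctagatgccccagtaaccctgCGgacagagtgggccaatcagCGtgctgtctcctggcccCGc
The 3 windows hold 14, 13 and 12 CG dinucleotides. Over 5983 genes tested that have a promoter in the same table the median was 16, and 71 of them had none. The table holds a promoter for 78.8% of the Zfp genes and 81.9% of all genes tested. The family was not compared with the rest, since at least 80% of its genes were required to have one.

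**Figure D1:**
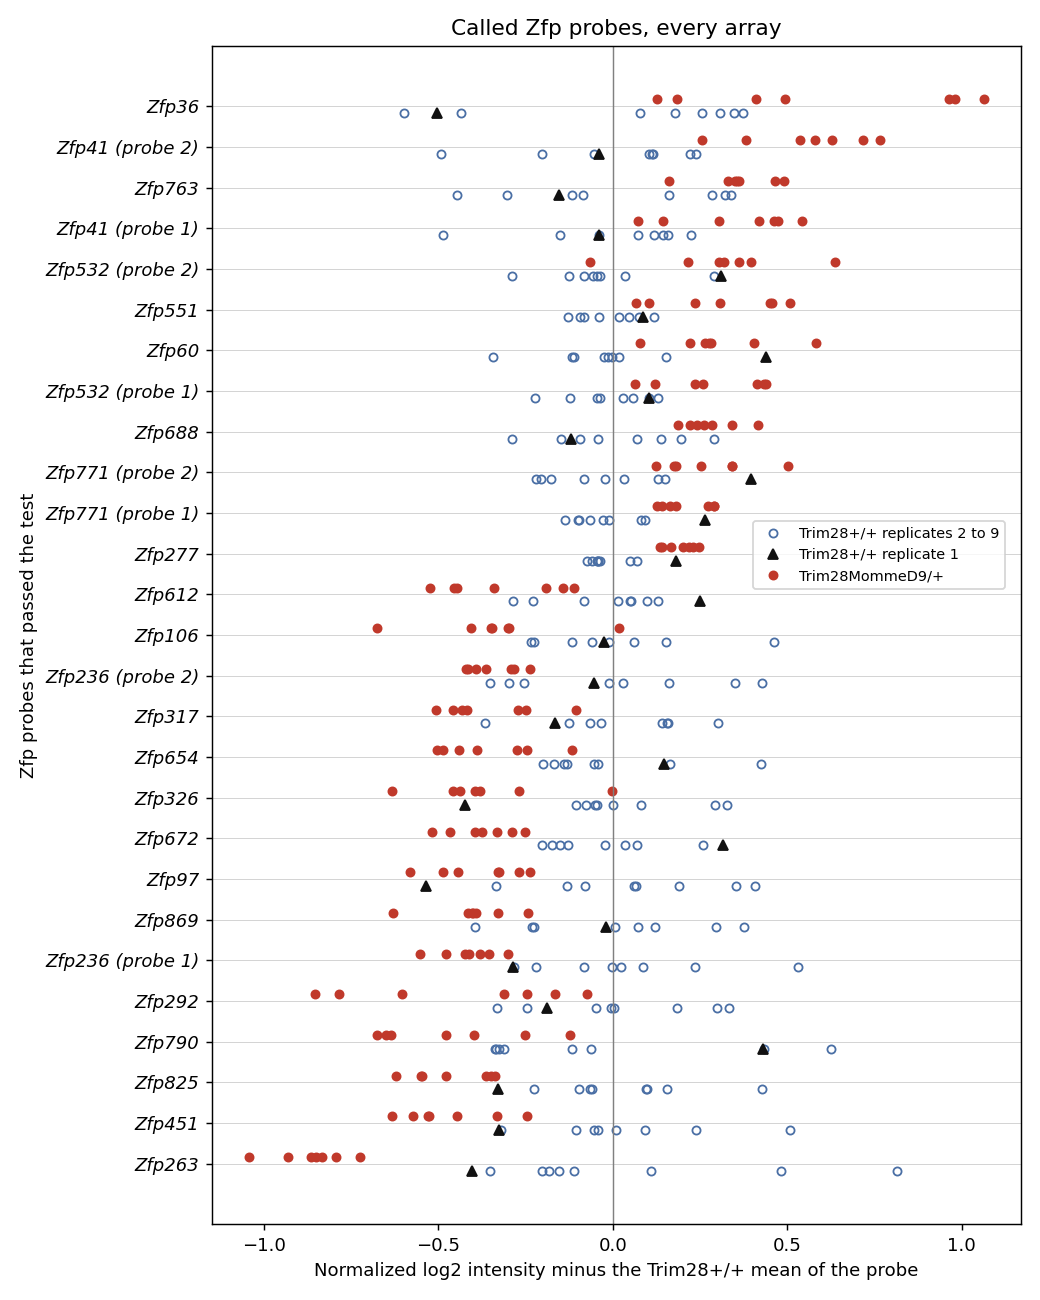
The 27 called Zfp probes, 1 row each, ordered by their difference between genotypes. The horizontal axis is the normalized log2 intensity of each array minus the mean of the 9 *Trim28+/+* arrays of that probe, with red points for the 7 *Trim28MommeD9/+* arrays, open blue points for *Trim28+/+* replicates 2 to 9 and a black triangle for *Trim28+/+* replicate 1. In most rows the genotypes overlap, while those of *Zfp263*, *Zfp825*, *Zfp672* and 1 probe each of *Zfp236* and *Zfp41* do not.

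Among the KRAB-containing members, 4 of 46 probes (40 genes) passed as higher and 7 as lower, which leaves 35, or 23.9% called with a median difference of 0.01. Members taken to lack KRAB had 6 higher, 8 lower and 60 not called of 74 (59 genes), 18.9% called with a median of -0.03. Both classes were assigned from general knowledge of each protein and were not checked against sequence. In the 15 probes (14 genes) left unclassified, 2 were higher and 0 lower, both of *Zfp41*, with a median of 0.09. The share called in the unclassified was 13.3%, and 23.3% of all probes were called, with a median of 0.05. After scaling to the median of all probes, 0 KRAB-containing probes were higher and 15 were lower, beside 0 and 32 of those that lack KRAB.

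**Figure D2:**
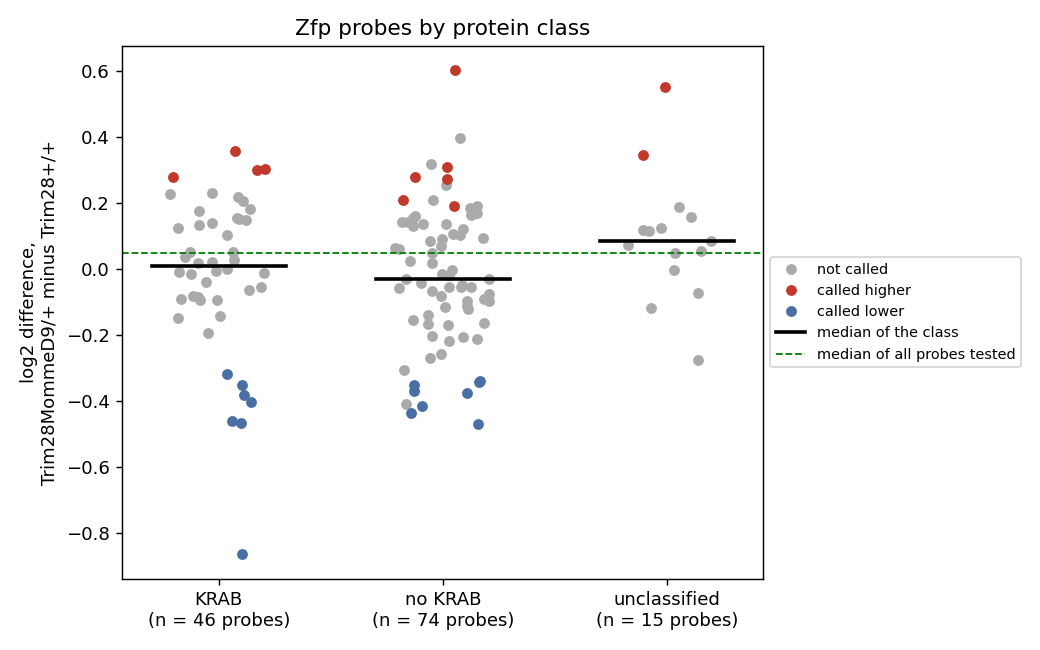
Difference between genotypes (*Trim28MommeD9/+* minus *Trim28+/+*, log2) of each Zfp probe, by protein class assigned from general knowledge: 46 KRAB-containing, 74 taken to lack KRAB and 15 unclassified. Red points passed the test as higher, blue as lower and grey did not pass, black bars are class medians (0.01, -0.03 and 0.09) and the dashed line is the median of all probes (0.05); 24 of 46, 33 of 74 and 11 of 15 probes lie above 0, with *Zfp263* lowest at -0.86 and *Zfp36* highest at 0.60.

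Of the KRAB-containing members that were lower, *Zfp263*, which also carries a SCAN dimerization domain, fell furthest of all 135 probes. It was at 6.49 to 6.81 (median 6.68) on the *Trim28MommeD9/+* arrays and 7.13 to 8.35 (median 7.38) on the *Trim28+/+* arrays. The groups do not overlap, replicate 1 is the lowest control and replicates 7 (8.01) and 8 (8.35) are the highest. The difference was -0.86 (SE 0.14, limma adjusted p = 0.0012), and -0.46 against replicate 1. It stayed called without *Trim28+/+* replicates 1, 5 and 8 (-0.78, adjusted p = 0.000155), 3 arrays that stand apart on other members, as described further on.

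*Zfp825*, a little-studied KRAB gene, was lower by less, also without overlap. Its arrays ran from 5.25 to 5.54 (median 5.40) in *Trim28MommeD9/+* and from 5.55 to 6.30 (median 5.82) in *Trim28+/+*, a difference of -0.46 (SE 0.09, limma adjusted p = 0.0026). The gap between the groups is narrow, since the lowest control, replicate 1 at 5.55, lies just above the highest mutant array at 5.54. Against replicate 1 the difference was -0.14.

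*Zfp790* lay at 5.17 to 5.72 (median 5.37) in *Trim28MommeD9/+* and 5.51 to 6.47 (median 5.73) in *Trim28+/+*, with a difference of -0.46 (SE 0.15, limma adjusted p = 0.0357). The groups overlap, and the 3 highest controls, replicates 1, 5 and 8 at 6.28, 6.28 and 6.47, stand above all other arrays. Without these 3 the difference was -0.21 and the call was lost (adjusted p = 0.139). Leaving out any single one of *Trim28+/+* replicates 5 and 8 or *Trim28MommeD9/+* replicates 1, 2, 4 and 6 also ended it (adjusted p = 0.0576 to 0.073).

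*Zfp869* was near the detection limit, detected on 1 of 7 *Trim28MommeD9/+* arrays and 8 of 9 *Trim28+/+* arrays. Its levels were 4.87 to 5.26 (median 5.10) and 5.10 to 5.87 (median 5.51), overlapping at their edges, with a difference of -0.40 (SE 0.10, limma adjusted p = 0.00976) and -0.38 against replicate 1. *Zfp97* was at 5.93 to 6.27 (median 6.18) and 5.98 to 6.92 (median 6.57), a difference of -0.38 (SE 0.12, adjusted p = 0.0257). For *Zfp97* replicate 1, at 5.98, is the lowest control and lies within the mutant range, so that the difference against it turns to 0.15. Without *Trim28MommeD9/+* replicate 5 or 6 the call of *Zfp97* was lost (adjusted p = 0.0531 to 0.0588).

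*Zfp317* has 3 kept probes, of which 1 fell, from 6.43 to 7.09 (median 6.76) in *Trim28+/+* to 6.29 to 6.69 (median 6.38) in *Trim28MommeD9/+*, by 0.35 on the log2 scale (SE 0.09, limma adjusted p = 0.0115). The other probes of the same gene differed by -0.01 (adjusted p = 0.933) and 0.00 (adjusted p = 0.998). Both were near the detection limit, with group means of 5.26 to 5.32. They were detected on 6 and 7 of 7 *Trim28MommeD9/+* arrays and on 7 and 6 of 9 *Trim28+/+* arrays. The fall of *Zfp317* therefore rests on 1 probe, and the dim probes say little for or against it. *Zfp612*, which the study's supplement also names, was at 5.39 to 5.80 (median 5.57) against 5.63 to 6.16 (median 5.96), a difference of -0.32 (SE 0.09, adjusted p = 0.0153). The groups overlap between 5.63 and 5.80, and replicate 1 is the highest control at 6.16, with a difference against it of -0.57. The call of *Zfp612* was lost without *Trim28+/+* replicates 1, 5 and 8 together (-0.24, adjusted p = 0.0713).

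The 4 KRAB-containing probes that were higher differed by 0.28 to 0.36. *Zfp763* was at 5.39 to 5.71 (median 5.58) in *Trim28MommeD9/+*, detected on 7 of 7 arrays, and at 4.78 to 5.56 (median 5.14) in *Trim28+/+*, detected on 5 of 9. The groups overlap, and the difference of 0.36 (SE 0.11, limma adjusted p = 0.0265) was lost without *Trim28+/+* replicate 8 or *Trim28MommeD9/+* replicate 4 or 6 (adjusted p = 0.0507 to 0.0569), and without *Trim28+/+* replicates 1, 5 and 8 together (0.21, adjusted p = 0.113).

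*Zfp551* was detected on 6 of 7 and 2 of 9 arrays, at 5.14 to 5.58 (median 5.38) and 4.95 to 5.19 (median 5.09), a difference of 0.30 (SE 0.08, limma adjusted p = 0.00852) and 0.22 against replicate 1. Its controls are at the edge of detection, so the size of the difference rests on signals near background. *Zfp60* was at 5.75 to 6.25 (median 5.95) against 5.33 to 6.11 (median 5.66), and its difference of 0.30 (SE 0.10, adjusted p = 0.0304) turned to -0.14 against replicate 1, the highest control. The call of *Zfp60* was lost without *Trim28+/+* replicate 5 or 7 or *Trim28MommeD9/+* replicate 4 or 5 (adjusted p = 0.0501 to 0.07). *Zfp688* was at 5.51 to 5.74 (median 5.59) against 5.04 to 5.62 (median 5.28), with a difference of 0.28 (SE 0.08, adjusted p = 0.0191) that fell to 0.19 (adjusted p = 0.0847) without *Trim28+/+* replicates 1, 5 and 8.

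Several KRAB-containing members that did not pass were named for their function, size of difference or position. *Zfp809*, which brings TRIM28 to retroviral DNA at the primer binding site in mouse embryonic stem cells, was at 6.81 to 7.40 (median 6.93) in *Trim28MommeD9/+* and 6.64 to 7.20 (median 6.94) in *Trim28+/+*. *Trim28MommeD9/+* replicates 1, 2 and 5, at 7.37, 7.40 and 7.34, lie above every control, and the other mutant arrays lie within the control range. The difference was 0.18 (SE 0.10, limma adjusted p = 0.211). *Zfp871*, *Zfp810* and *Zfp472*, the KRAB members detected on all arrays with the next largest positive differences, were at 0.18 (adjusted p = 0.248), 0.21 (adjusted p = 0.179) and 0.23 (adjusted p = 0.12). After scaling to the median of all probes the differences of *Zfp809* and these 3 lay between -0.0874 and -0.0197. *Zfp324*, a KRAB gene close to *Trim28* on chromosome 7, was detected on 0 of 7 and 3 of 9 arrays, with a difference of -0.08 (adjusted p = 0.526).

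Members that lack KRAB include several with a known role of their own. *Zfp36*, or tristetraprolin, is a CCCH protein that binds AU-rich messenger RNAs, among them that of TNF, and speeds their decay, and its own gene responds within minutes to growth factors and inflammatory signals. It had the largest increase of all 135 probes. Levels were 8.52 to 9.46 (median 8.89) in *Trim28MommeD9/+* and 7.79 to 8.76 (median 8.57) in *Trim28+/+*. *Trim28MommeD9/+* replicates 1, 2 and 5 stand high at 9.36, 9.46 and 9.37, *Trim28+/+* replicates 1, 5 and 8 stand low at 7.89, 7.96 and 7.79, and all other arrays of both genotypes lie between 8.47 and 8.89. The difference was 0.60 (SE 0.18, limma adjusted p = 0.0219) and 1.11 against replicate 1. It was lost without *Trim28MommeD9/+* replicate 5 (0.54, adjusted p = 0.0525) and without *Trim28+/+* replicates 1, 5 and 8 (0.35, adjusted p = 0.105).

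Both probes of *Zfp41*, a C2H2 gene on chromosome 15 left unclassified here, were higher. On the first the arrays ran from 6.27 to 6.78 (median 6.60) in *Trim28MommeD9/+* and from 5.53 to 6.26 (median 6.12) in *Trim28+/+*, a difference of 0.55 (SE 0.10, limma adjusted p = 0.00178). The groups do not overlap, by a margin of the highest control at 6.26 against the lowest mutant array at 6.27, and the difference against replicate 1 was 0.59. The second probe ran from 6.03 to 6.50 (median 6.38) and 5.47 to 6.18 (median 6.03), with a difference of 0.35 (SE 0.10, adjusted p = 0.0186) and 0.38 against replicate 1. Without *Trim28+/+* replicates 1, 5 and 8 the first probe stayed called (0.43, adjusted p = 0.00231) and the second did not (0.23, adjusted p = 0.058).

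Among other members that rose, *Zfp532*, a partner of the chromatin proteins ZNF592 and ZNF687 in human cells, was called on both its probes, at 0.31 (SE 0.10, limma adjusted p = 0.0322) and 0.28 (SE 0.08, adjusted p = 0.0131). The first of these probes ran from 5.22 to 5.92 (median 5.60) in *Trim28MommeD9/+* and 4.99 to 5.59 (median 5.24) in *Trim28+/+*, and it overlaps widely. Replicate 1 is its highest control and the difference against it was 0.00. Leaving out any 1 of *Trim28+/+* replicates 2, 5, 8 and 9 or *Trim28MommeD9/+* replicates 1, 2, 5 and 6 ended this call (adjusted p = 0.0524 to 0.0778). The second probe was detected on 5 of 7 and 2 of 9 arrays.

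*Zfp771*, a C2H2 gene of chromosome 7, was called on both probes, at 0.27 (SE 0.09, limma adjusted p = 0.0347) and 0.21 (SE 0.06, adjusted p = 0.0228), with replicate 1 the highest control of each. The second probe was at 7.50 to 7.66 (median 7.55) against 7.23 to 7.64 (median 7.34). Against replicate 1 the differences turned to -0.12 and -0.06, and the second probe turned to -0.05 after scaling to the median of all probes. The first call was lost without any 1 of *Trim28+/+* replicates 6 to 9 or *Trim28MommeD9/+* replicates 2, 4, 5 and 6 (adjusted p = 0.0537 to 0.0771). *Zfp277*, whose protein binds Polycomb repressive complex 1 in mouse cells, was at 7.97 to 8.08 (median 8.04) against 7.76 to 8.02 (median 7.79), a difference of 0.19 (SE 0.05, adjusted p = 0.0122) that was 0.01 against replicate 1 and -0.07 after scaling to the median of all probes. The other probe of *Zfp277* differed by 0.21 (adjusted p = 0.137).

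Of the members that lack KRAB and were lower, *Zfp672*, a C2H2 gene on chromosome 11, was detected on all 16 arrays. Its levels ran from 7.58 to 7.84 (median 7.72) in *Trim28MommeD9/+* and from 7.89 to 8.41 (median 8.07) in *Trim28+/+*, without overlap, a difference of -0.38 (SE 0.08, limma adjusted p = 0.00336). Replicate 1 is its highest control, so the difference against it was larger, at -0.69. Without *Trim28+/+* replicates 1, 5 and 8 it stayed called at -0.27 (adjusted p = 0.00665). *Zfp692*, its neighbour among the kept Zfp genes, went the other way at 0.32 and did not pass (adjusted p = 0.0561).

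*Zfp451*, a SUMO ligase in human cells, was detected on 2 of 7 and 9 of 9 arrays, at 4.89 to 5.27 (median 4.99) and 5.19 to 6.03 (median 5.48). Its probe was kept only through the *Trim28+/+* arrays, where it is higher. The groups overlap at their edges, with a difference of -0.47 (SE 0.11, limma adjusted p = 0.00505) and -0.14 against replicate 1, the lowest control. *Zfp236*, a protein with many C2H2 fingers encoded on chromosome 18, fell on both probes. On the first, at 5.62 to 5.87 (median 5.76) against 5.89 to 6.70 (median 6.17), the groups do not overlap and the difference was -0.41 (SE 0.10, adjusted p = 0.00834), or -0.13 against replicate 1. The second differed by -0.34 (SE 0.10, adjusted p = 0.0254) and lost its call without *Trim28MommeD9/+* replicate 5 (adjusted p = 0.0515) and without *Trim28+/+* replicates 1, 5 and 8 (-0.22, adjusted p = 0.0788).

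Proteins that act on RNA include *Zfp326*, part of the DBIRD complex that couples splicing to transcription, and *Zfp106*, an RNA-binding protein needed for motor neurons and muscle in mice. *Zfp326* has 3 kept probes, and 1 of them was lower, at 5.89 to 6.51 (median 6.12) against 6.09 to 6.85 (median 6.47), by -0.37 (SE 0.10, limma adjusted p = 0.0162). Against replicate 1, its lowest control, this difference was 0.06, and the other probes differed by -0.16 (adjusted p = 0.17) and -0.05 (adjusted p = 0.661). For *Zfp106*, 1 of 2 probes passed, at 5.06 to 5.76 (median 5.39) against 5.50 to 6.20 (median 5.71), a difference of -0.34 (SE 0.10, adjusted p = 0.0253). It was lost without *Trim28MommeD9/+* replicate 4 (-0.28, adjusted p = 0.0595) and without *Trim28+/+* replicates 1, 5 and 8 (-0.34, adjusted p = 0.0562), and the second probe differed by -0.30 (adjusted p = 0.129). *Zfp638*, which binds cytidine-rich DNA and takes part in silencing unintegrated retroviral DNA, differed by -0.41 without passing (adjusted p = 0.0779), with levels of 5.08 to 5.97 against 5.65 to 6.80, and passed without *Trim28+/+* replicate 1 (-0.46, adjusted p = 0.0474) or 6 (-0.47, adjusted p = 0.0497).

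*Zfp292*, a large protein with C2H2 fingers, gave 1 probe at 5.02 to 5.80 (median 5.56) against 5.54 to 6.21 (median 5.87), with a difference of -0.43 (SE 0.13, limma adjusted p = 0.0212), and another at -0.10 (adjusted p = 0.505). The call of the first was lost without *Trim28MommeD9/+* replicate 5 (-0.36, adjusted p = 0.0526) and without *Trim28+/+* replicates 1, 5 and 8 (-0.41, adjusted p = 0.0502). *Zfp654*, a little-studied gene on chromosome 16, was at 5.84 to 6.22 (median 5.95) against 6.14 to 6.77 (median 6.29), a difference of -0.35 (SE 0.09, adjusted p = 0.0114).

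The remaining members with a known function did not pass the test. They included *Zfp598*, which marks collided ribosomes with ubiquitin (0.00), and *Zfp335*, a nuclear coactivator (-0.03). *Zfp467*, which acts in bone and fat formation, was at -0.03, and *Zfp91*, a regulator of NF-kappaB signalling, at -0.11. *Zfp281*, a regulator of pluripotency, was at -0.15 (adjusted p = 0.118 from limma) and *Zfp318*, which shapes splicing of immunoglobulin heavy chains in B cells, at -0.12 (adjusted p = 0.199). *Zfp644*, a partner of the histone methyltransferase G9a, was at 0.07, *Zfp148*, which binds GC-rich promoters, at 0.07, *Zfp207*, a spindle assembly protein, at 0.14 and *Zfp395*, a DNA-binding protein, at 0.17. Of these, *Zfp207* passed without *Trim28+/+* replicates 1, 5 and 8 (0.26, adjusted p = 0.0379).

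Probes of 1 gene need not read the same transcripts. Of 19 genes with more than 1 kept probe, 4 had every probe called in 1 direction (*Zfp41*, *Zfp236*, *Zfp532* and *Zfp771*), 5 had some probes called (*Zfp106*, *Zfp277*, *Zfp292*, *Zfp317* and *Zfp326*) and 10 had none. No gene had probes called in opposite directions, and 14 of the 19 had the same sign on all probes. Several KRAB genes have near copies in the genome, and whether their probes also bind the transcripts of copies was not tested.

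Some Zfp probes split the arrays in a way that genotype does not. Each probe's values were put in order and the widest gap with at least 3 arrays on either side was taken. The gap was over 0.4 on 6 Zfp probes, 4.44% of 135, beside 3.34% of all probes, and the median gap was 0.107 in both. Both probes of *Zfp330*, which encodes a nucleolar protein, are among the 6. On 1 probe 7 arrays lay at or under 8.69 and the other 9 at or above 9.39, and on the other the same 7 arrays lay at or under 7.72 and the others at or above 8.19. The low arrays are *Trim28MommeD9/+* replicates 1, 2 and 5 and *Trim28+/+* replicates 2, 3, 4 and 7, so that no matched pair is divided by the gap. With both genotypes on both sides of the gap, *Zfp330* differed by 0.02 (adjusted p = 0.947 from limma) and 0.17 (adjusted p = 0.611), and it had the largest standard deviation of all Zfp probes in each genotype, 0.499 in *Trim28MommeD9/+* and 0.549 in *Trim28+/+*.

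The other 4 probes, of *Zfp46*, *Zfp36*, *Zfp790* and *Zfp608*, set the same 3 arrays apart, *Trim28+/+* replicates 1, 5 and 8. These were the high arrays for *Zfp46* (8.03, 7.92 and 7.90, all others at or under 7.31) and for *Zfp790*, and the low arrays for *Zfp36* and for *Zfp608* (4.96, 4.35 and 4.74, all others at or above 5.44). The arrays lie on both background levels, replicate 1 on the lower and replicates 5 and 8 on the higher. The labels do not say whether they share a mouse; the matching above joined replicates 5 and 8 and left replicate 1 single. Neither *Zfp46* (-0.12, adjusted p = 0.624 from limma) nor *Zfp608* (0.40, adjusted p = 0.0883) passed, and without the 3 arrays they were at 0.18 (adjusted p = 0.0675) and 0.11 (adjusted p = 0.318). Of the 27 called probes, 18 were still called the same way without them, 8 higher and 10 lower. That fit called 16 Zfp probes higher and 10 lower in all, beside 23% of all probes.

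**Figure D3:**
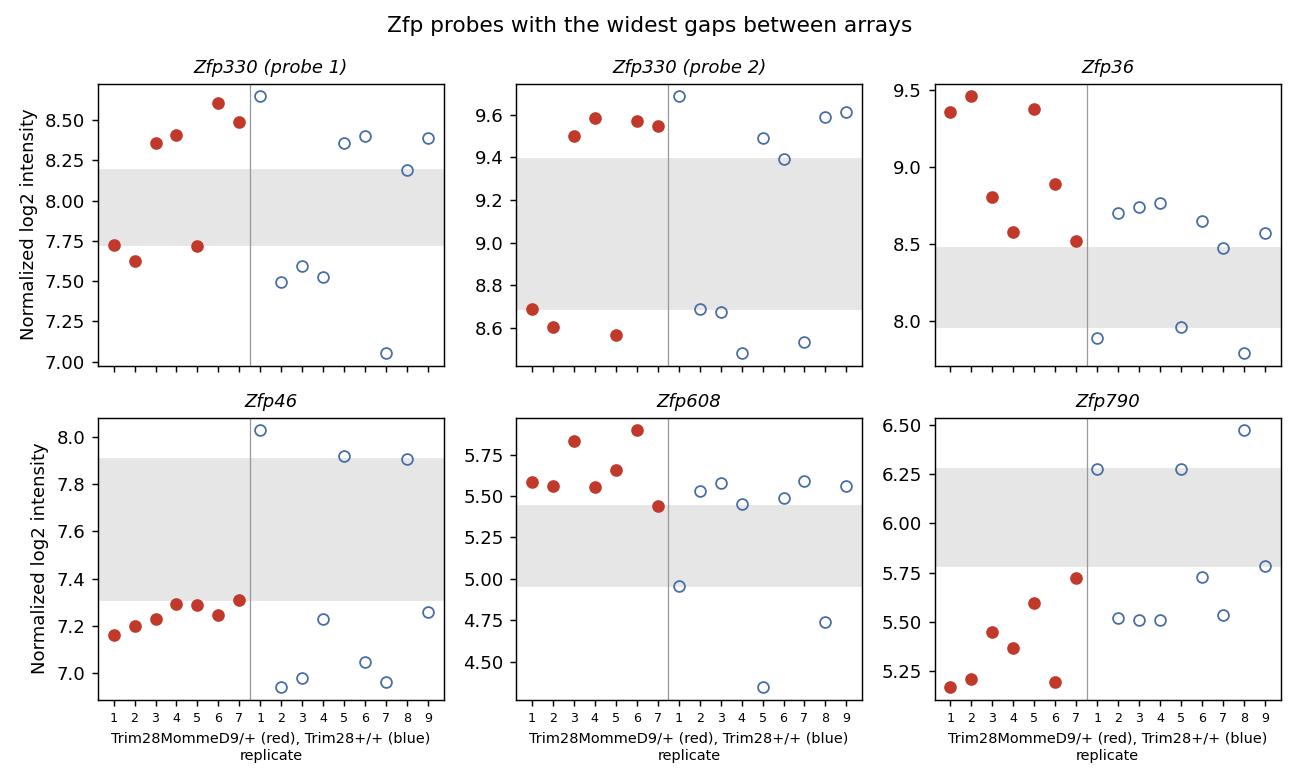
Normalized log2 intensity of the 6 Zfp probes with the widest gaps between arrays, 1 panel each, against the replicate number of the 7 *Trim28MommeD9/+* arrays (red) and the 9 *Trim28+/+* arrays (open blue). Grey bands are the gaps. In *Zfp330* both probes put *Trim28MommeD9/+* replicates 1, 2 and 5 and *Trim28+/+* replicates 2, 3, 4 and 7 below the gap, and in *Zfp36*, *Zfp46*, *Zfp608* and *Zfp790* the gap sets *Trim28+/+* replicates 1, 5 and 8 apart from all other arrays.

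The study asks about variation as well as level. The standard deviation over arrays was larger in *Trim28MommeD9/+* than in *Trim28+/+* for 34 of 135 Zfp probes (25.2%), beside 29.4% of all probes, with medians of 0.15 and 0.21. Without replicate 1 among the controls it was larger for 41 (30.4%), beside 33% of all probes. These are descriptions: arrays of 1 mouse cannot be identified, so the spread mixes mice and technical repeats.

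Position of replicate 1 among the controls differed from gene to gene. Of the 15 probes called lower, it lay below every other control on 6, within their range on 7 and above them all on 2, and the difference against it was negative for 13 of 15. Of the 12 called higher, it lay above every other control on 5 and within their range on 7, and the difference against it was positive for 9 of 12. Without replicate 1 all 27 probes stayed called in the same direction. In that fit all controls lie on the higher background level and all mutant arrays on the lower. It therefore cannot tell genotype from background level. That fit called 13 Zfp probes higher and 16 lower in all, and 28.2% of all probes in either direction. 

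**Figure D4:**
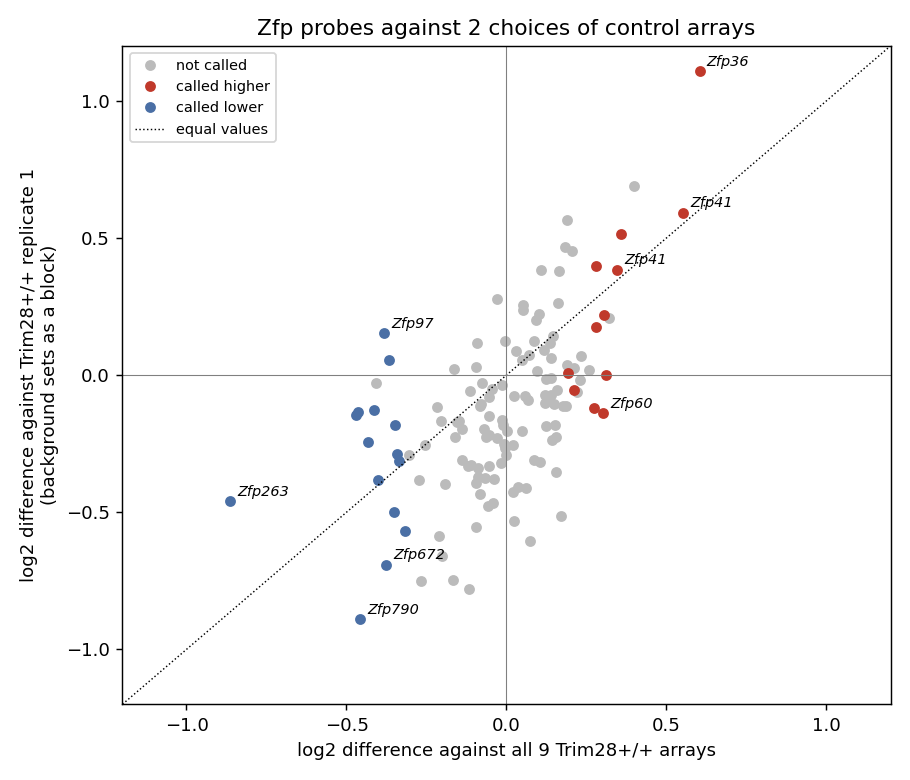
Difference between genotypes for each of the 135 Zfp probes, against all 9 *Trim28+/+* arrays (horizontal, log2) and against *Trim28+/+* replicate 1 alone (vertical, log2). Replicate 1 is the only control on the lower background level, at 42.68 beside 37.59 to 40.29 on the mutant arrays. Red points were called higher, blue lower and grey not called, and the dotted line marks equal values. *Zfp263*, *Zfp672*, *Zfp790*, *Zfp36* and *Zfp41* keep their direction on both axes, while *Zfp97* and *Zfp60* change sign.

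**Figure D5:**
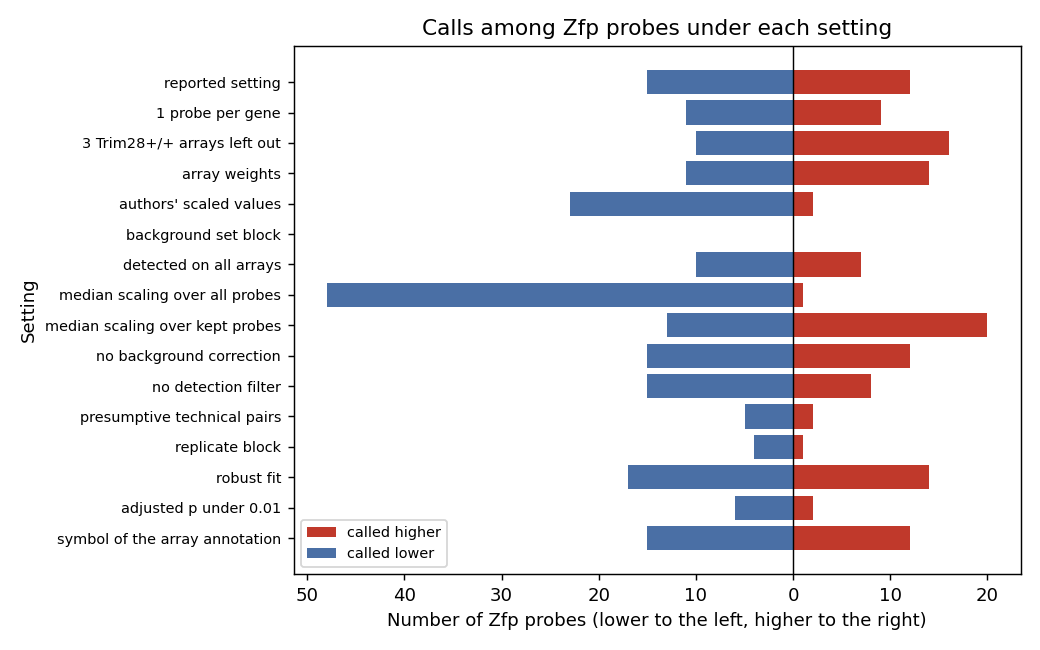
Number of Zfp probes called higher (red, right) and lower (blue, left) under the reported setting and each alternative way of processing. The reported 12 and 15 become 1 and 48 after scaling to the median of all probes, and 0 and 0 with the background set as a block.

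Zfp genes are spread over the genome, with the largest number, 30 probes of 27 genes, on chromosome 7. There 6 were higher and 1 was lower, with a median of 0.07, while all 723 probes of chromosome 7 had 14.2% higher and 9.13% lower. The 6 higher probes are those of *Zfp36*, *Zfp60*, *Zfp551*, *Zfp688* and both of *Zfp771*, and the lower one is that of *Zfp790*. Chromosome 7 also carries *Trim28*. Of the genes next to it, *Chmp2a*, an ESCRT subunit, had 1 of 3 probes lower (-0.59, adjusted p = 0.00629 from limma, but 0.22 against replicate 1), 1 higher (0.30, adjusted p = 0.00458, and 0.07 against replicate 1) and 1 not called (-0.20, adjusted p = 0.0962, but 0.30 against replicate 1). *Slc27a5*, a bile acid and fatty acid CoA ligase of liver, was higher (0.21, adjusted p = 0.0193), but at -0.09 against replicate 1 and 0.0051 after scaling to the median of all probes. *Zbtb45* did not pass (-0.02, adjusted p = 0.946 from limma) and was detected on 2 of 7 *Trim28MommeD9/+* arrays and 1 of 9 *Trim28+/+* arrays. *Mzf1* and *Ube2m*, also planned as neighbours, had no kept probe. *Zfp446*, also in the interval, was detected on 0 arrays, and *Zfp541* was not analysed here.

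Some Zfp genes are direct neighbours. In 9 runs of neighbouring kept members (20 genes, 24 probes), 2 probes were higher and 2 lower, 16.7% called beside 20% of all Zfp probes and 23.3% of all probes. The largest contrast was between *Zfp672* and *Zfp692* above, and in the pair of *Zfp30* and *Zfp790* only the second passed (0.14 and -0.46).

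Other zinc finger families were represented by few probes. Of 11 *Zkscan* and *Zscan* probes, of the SCAN domain group, 2 were higher and 1 lower (27.3% called, beside 23.3% of all probes). Of 14 *Zbtb* probes, whose proteins carry a BTB domain in place of KRAB, 0 were higher and 2 lower (14.3%), and of 9 *Klf* probes 0 and 1 (11.1%). The TRIM28 corepressor list (24 probes, 17 genes) had 1 probe higher, of *Ppp1ca*, and 4 lower, 20.8% called, with a median of -0.13 beside 0.05 over all probes. The lower probes were those of *Trim28* itself, *Hdac2*, a histone deacetylase (-0.43, adjusted p = 0.00719 from limma), *Ppp1cb*, a phosphatase subunit (-0.49, adjusted p = 0.0126), and *Sumo2*, a small protein modifier (-0.31, adjusted p = 0.0301). Against replicate 1 that of *Hdac2* was at -0.10, and those of *Ppp1cb* and *Sumo2* turned to 0.06 and 0.14. A second probe of *Ppp1cb* did not pass (-0.31, adjusted p = 0.0581). For *Setdb1*, the methyltransferase recruited by TRIM28, the difference was 0.10 (adjusted p = 0.287).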

How the data were processed

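Liver RNA of *Trim28MommeD9/+* and *Trim28+/+* mice was hybridized by the authors to Illumina MouseRef-8 v2.0 BeadChips. The authors deposited a bead intensity per probe and array that is neither background-corrected nor normalized, with a detection p-value for each, which the authors derived from negative controls. A second table the authors deposited holds the same intensity after subtraction of a constant and scaling of each array, and it served as an alternative. The methods name BeadStudio and GenomeStudio; a version of either is not given in the sources used here.

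After removal of 833 blank lines, 25697 intensities were background-corrected, quantile normalized and taken to log2 by the neqc function of limma 3.58.1 (offset 16) in R 4.3.3. Genotypes were compared over 10291 probes by a linear model in limma, whose moderated test allowed the variance to follow intensity, two-sided, with Benjamini-Hochberg adjustment and a threshold of 0.05. The fit was tested on simulated data with known changes. The simulated arrays were independent and had no background levels, so the test does not bear on shared mice or on the background difference. Other steps used Python 3.11.15, pandas 2.3.3, NumPy 2.4.6 and Matplotlib 3.10.9. The number of arrays limits the precision. Symbols were updated through the Entrez identifier for 23962 of 23978 named probes.

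Named probes (50 of 40 genes) were the 8 largest increases and 8 largest decreases among calls, 18 detected genes of a list of 34 with a known function, members near *Trim28* or in the study's supplement, KRAB members detected on all arrays with the 4 largest differences in each direction, and 6 further called probes named after their values were seen (*Zfp672*, *Zfp654*, *Zfp688*, both of *Zfp771* and 1 of *Zfp236*). *Zfp46*, *Zfp608* and *Zfp692* were also singled out after their values were seen. Members and lists were chosen with earlier results of these data known. Protein classes were assigned from general knowledge of each protein, not from sequence, which departs from the classification by protein sequence or gene description that had been planned. *Zfp91* was added to the class that lacks KRAB after its values had been read. Alternatives covered scaling, background correction, filters, fits, blocks, pairs, thresholds and leaving out each array, and leaving out *Trim28+/+* replicates 1, 5 and 8 was chosen after seeing the data. The replicate numbers of the labels were not used as pairs in the reported fit.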

Additional observations from a re-analysis of the deposited data

Results flagged for a closer look

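Of 102 groups of arrays examined for a single array far from the rest, over the named probes and *Trim28* in each genotype, 3 had one, fewer than the roughly 1 in 20 that chance gives. *Zfp638* was at 5.08 in *Trim28MommeD9/+* replicate 5, with the other 6 between 5.62 and 5.97. *Zfp318* was at 7.28 in *Trim28MommeD9/+* replicate 4, with the next array at 7.39 and the highest at 7.47. The probe of *Zfp326* that differed by -0.05 was at 6.71 in the same replicate 4, with the others from 6.93 to 7.04.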

How the results depend on the processing

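The counts of 12 Zfp probes higher and 15 lower became 2 and 23 with the authors' scaled values, 1 and 48 with scaling to the median of all probes, and 20 and 13 with scaling to the median of kept probes. They became 0 and 0 with the background set as a block (limma; 4 and 16 at an unadjusted p under 0.05), 2 and 5 with presumptive technical pairs, and 2 and 6 at an adjusted p under 0.01. With only probes detected on all arrays 7 were higher and 10 lower. Leaving out 1 array at a time gave 8 to 14 higher and 12 to 17 lower. The share of all probes called is given only for the fit without *Trim28+/+* replicate 1 (28.2%), so this range is not set against all probes. The difference of *Trim28* was -0.77 with the background set as a block, where its call was lost (adjusted p = 0.262 from limma), and ranged from -0.49 to -0.39 when 1 array was left out. The cause of these shifts was not tested, beyond the single control array that the background block leaves.

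Among the called Zfp probes, 7 values on 6 probes changed direction under these alternatives. With the background set as a block the differences became 0.055 for *Zfp326*, 0.15 for *Zfp97*, -0.14 for *Zfp60*, and -0.12 and -0.055 for the probes of *Zfp771*. With scaling to the median of all probes *Zfp277* was at -0.073 and a probe of *Zfp771* at -0.052. Differences that had not passed also changed sign, for example those of *Zfp207* (-0.24 with the block and -0.12 with that scaling) and *Zfp148* (-0.19 with that scaling). Arrays with the same replicate number had correlations of their deviations from -0.386 to 0.469, and 2 of 7 correlated best with their own number. Such correlations cannot show whether the numbers pair littermates, which the labels do not state. With the replicate block 1 Zfp probe was higher and 4 were lower. At an unadjusted p under 0.05 in limma that block gave 16 Zfp probes higher and 16 lower, 23.7% of 135, beside 26.6% of all probes.

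Dim signals limit the family: 105 of 135 probes had a mean log2 intensity under 7. The planned change of the limit for calling a KRAB domain was not run, since no protein sequences were used.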
